A study of Mus musculus with 3 samples.

Results

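The giant, M-band and myosin-binding proteins were taken as 9 genes: Ttn, Neb, Myom1, Myom2, Mybpc1, Mybpc2, Mybph, Des and Nrap. A probe set was included when the platform's gene table gave exactly 1 of these symbols for it, which selected 8 probe sets of 6 genes out of 20393 probe sets of 12394 genes. Ttn and Des had 2 probe sets each, and Myom1, Myom2, Mybph and Nrap had 1 each. No probe set carried the name of Neb, Mybpc1 or Mybpc2 alone, so their levels are not given here. Microarrays measured the RNA of 3 normal mouse muscle samples, called muscle 1, muscle 2 and muscle 3, with 1 array each. The samples came from littermate controls aged 3 to 6 weeks that served as the normal tissue for tumours of Pax7-expressing satellite cells, the stem cells of muscle. The labels do not name the muscle, the strain or the sex, and do not say whether a sample is 1 animal or whether the controls received the 4-hydroxytamoxifen given to the tumour mice. Tumours were not analysed here, so no comparison between groups was made.

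Muscle contracts by sliding thin actin filaments past thick myosin filaments in a repeating unit, the sarcomere, bounded by Z-discs and held at its middle by the M-band. Titin runs from the Z-disc to the M-band as a spring and scaffold, and nebulin lies along the thin filament. Myomesins cross-link thick filaments and titin in the M-band, proteins of the MyBP family bind along the thick filament, and desmin filaments tie neighbouring myofibrils together at their Z-discs.

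All 6 measured genes had RNA far above the background of the array, and the 3 muscles were close to each other. Of the 8 probe sets, 7 were above background in every muscle, while the other, a probe set of Des, was below it in all 3. All values are log2 RMA values, on which a difference of 1 is 2-fold. As background, 52 probe sets for genes restricted to other organs were taken, and their 95th percentile lay at 5.94 for muscle 1, 6.31 for muscle 2 and 6.16 for muscle 3. Over the whole array 47.6% of probe sets and 54.8% of genes were above it in all 3 muscles. The 7 probe sets lay at least 4.67 above background in every muscle. Probe sets bind with different strength, so levels of different genes were not ranked. In whole tissue a lower level may come from fewer cells of a type or from less RNA per cell, and these cannot be told apart.

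**Figure D1:**
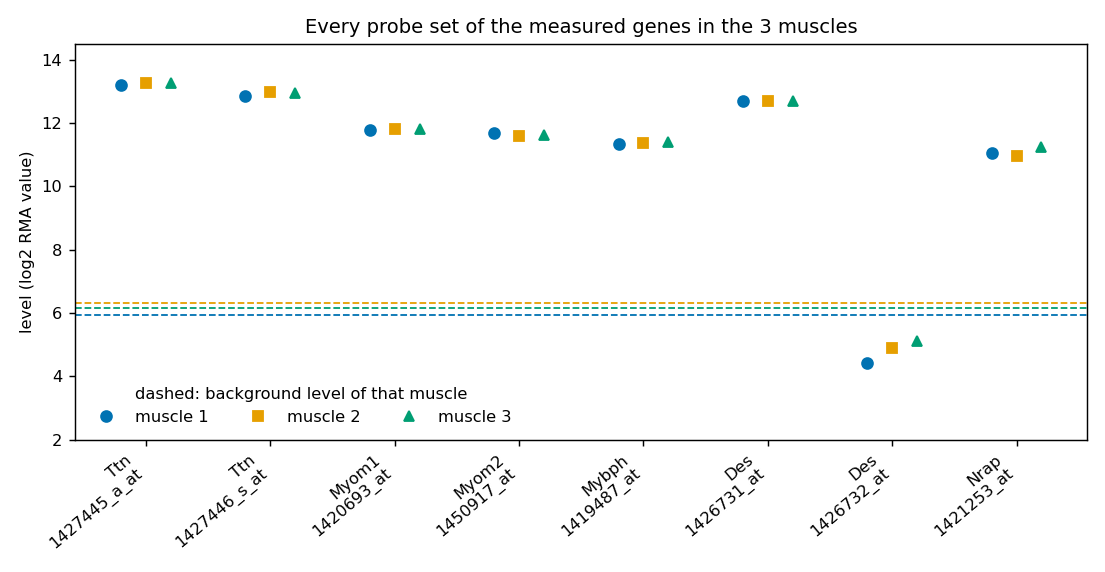
Level of every probe set of the 6 measured genes (log2 RMA value, vertical axis), with 1 point per muscle and the background level of each muscle as a dashed line. The 7 upper probe sets have means from 11.08 to 13.25, and the second probe set of Des, with a mean of 4.82, lies under all 3 lines.

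The tissue label was checked against markers. All 7 skeletal muscle fibre markers were above background in each muscle, with the skeletal actin Acta1 at 13.62 ± 0.03 (SD, n = 3). Of 7 heart markers 1 was above background in every muscle, the light chain Myl4 at 7.32 ± 0.05 (SD, n = 3), which is also expressed in developing skeletal muscle. The heart troponin Tnnt2 was near background by 1424967_x_at, which was above it only in muscle 1, by 0.30. Its other probe set was below background in all 3 muscles. The heart myosin Myh6 and the hormone Nppa were below background in all 3 as well. Of 5 satellite cell and myoblast markers 4 were above background, Pax7 being the exception. Of these 4, Myf5 was near it, lying 0.26 above background in muscle 3. These marker counts stand beside 54.8% of all genes above background in all 3 muscles.

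To show the sequence before these genes, the RefSeq window from 250 bases before to 50 bases after an annotated start was taken from a table of the mouse build GRCm38.p6, which held 1 window for each of Ttn, Myom1, Mybpc1, Mybpc2, Mybph, Des and Nrap. The table's windows are not tied to the probe sets. Motifs of muscle promoters were searched on both strands: the E-box form CAGCTG, recognised by myogenic factors of the MyoD family; MCAT, CATTCC, recognised by TEAD factors; the TATA box TATAAA; the CArG box of the serum response factor; and the MEF2 site. The E-box was in 4 of the 7 windows and in 16.3% of 32851 windows of the same length in the table. MCAT was in 3 of 7 and in 14.7% of all windows, and the TATA box in 1 of 7 and in 13.6%. The CArG box and the MEF2 site were each in 1 of 7, and in 1.63% and 3.19% of all windows. A match is a string of letters and was not tested as a binding site. In the windows printed below, given for the measured genes, capitals mark these motifs.

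**Figure D2:**
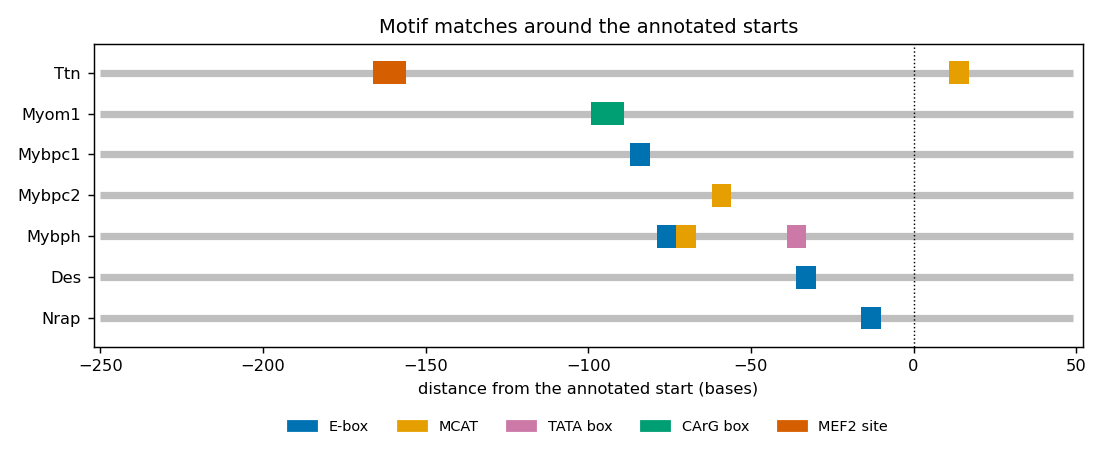
Matches to 5 motifs (colours) in the windows of 7 genes, placed by distance in bases from the annotated start (dotted line). The E-box is found in Mybpc1, Mybph, Des and Nrap, between 87 and 16 bases before the start, and the Ttn and Myom1 windows hold other motifs.

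Titin (Ttn), the largest of the giant proteins, was measured by 2 probe sets built on the same sequence record. The first, 1427445_a_at, read 13.21 in muscle 1, 13.26 in muscle 2 and 13.28 in muscle 3. The second, 1427446_s_at, read 12.87, 12.97 and 12.94 in the same order. Muscle 1 was lowest by both, whereas muscles 2 and 3 changed places, so these last 2 have no settled order. Their means were 13.25 ± 0.035 and 12.93 ± 0.052 (SD, n = 3), and the largest gap between muscles was 1.07-fold. The first probe set read higher than the second by 0.33 ± 0.030 (SD, n = 3), a larger gap than that between muscles. The ending of the second ID marks probes that can match transcripts of other genes. The highest values on the arrays were 13.73, 13.75 and 13.74 in muscles 1, 2 and 3, so both Ttn probe sets were near the top of the scale, where saturation cannot be judged from these values. The window before the Ttn start (chr2:76982498-76982797, minus strand) holds a MEF2 site beginning 166 bases before the start and an MCAT motif 11 bases after it.
Ttn window: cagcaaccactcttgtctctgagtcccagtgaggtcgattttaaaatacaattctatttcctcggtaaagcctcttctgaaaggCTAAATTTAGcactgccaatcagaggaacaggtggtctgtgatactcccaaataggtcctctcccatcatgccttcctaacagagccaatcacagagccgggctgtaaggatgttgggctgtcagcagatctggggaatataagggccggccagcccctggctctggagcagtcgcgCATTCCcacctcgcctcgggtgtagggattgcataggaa

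The M-band genes also differed little between muscles, Myom1 less than Myom2. Myomesin 1 (Myom1), which links titin to the thick filament in all fibre types, read 11.79 in muscle 1, 11.80 in muscle 2 and 11.82 in muscle 3 by 1420693_at. Its mean was 11.80 ± 0.014 (SD, n = 3), and the highest and lowest muscle differed by 1.02-fold. Myomesin 2 (Myom2), also called M-protein and typical of fast fibres, read 11.70, 11.59 and 11.63 by 1450917_at. Its mean was 11.64 ± 0.053 (SD, n = 3), with a span of 1.08-fold. Myom2 was the only measured gene that was highest in muscle 1. Muscles 1 and 2 were in opposite order by Myom1 and Myom2, over gaps of 0.11 or less on the log2 scale. For Myom1 they read 11.7936 and 11.7994, closer than its SD of 0.014, so its order of these muscles is not settled. The Myom1 window (chr17:71019307-71019606, plus strand) starts from an annotated start inside the span of the gene, and holds a CArG box beginning 99 bases before that start.
Myom1 window: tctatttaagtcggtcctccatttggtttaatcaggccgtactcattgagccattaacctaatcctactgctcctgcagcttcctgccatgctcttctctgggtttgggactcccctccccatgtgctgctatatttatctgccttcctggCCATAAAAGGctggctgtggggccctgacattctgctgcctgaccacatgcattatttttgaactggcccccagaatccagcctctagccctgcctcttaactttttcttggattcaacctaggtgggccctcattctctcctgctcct

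Of the myosin-binding proteins, MyBP-H (Mybph) was measured, a smaller relative of MyBP-C found in fast fibres. By 1419487_at it read 11.35 in muscle 1, 11.36 in muscle 2 and 11.40 in muscle 3. The mean was 11.37 ± 0.026 (SD, n = 3), with a span of 1.04-fold. The heart form of the family, Mybpc3, which was not among the 9 genes, stayed under background, with 5.52 in muscle 1, 5.58 in muscle 2 and 5.76 in muscle 3. No level was available for the slow and fast MyBP-C genes of skeletal muscle, Mybpc1 and Mybpc2. The Mybph window (chr1:134193198-134193497, plus strand) has an E-box beginning 79 bases before the start, with an MCAT motif directly after it at 73 bases, and a TATA box at 39 bases.
Mybph window: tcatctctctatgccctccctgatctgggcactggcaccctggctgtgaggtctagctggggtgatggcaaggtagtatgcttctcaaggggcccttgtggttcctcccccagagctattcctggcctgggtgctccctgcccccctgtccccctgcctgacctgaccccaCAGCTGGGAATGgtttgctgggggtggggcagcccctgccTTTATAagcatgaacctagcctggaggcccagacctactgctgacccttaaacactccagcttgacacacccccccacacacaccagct

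Desmin (Des), the intermediate filament protein of muscle, had the smallest spread of the 7 probe sets above background by its upper probe set, and a second probe set below background. By 1426731_at it read 12.69 in muscle 1, 12.70 in muscle 2 and 12.69 in muscle 3, with a mean of 12.69 ± 0.0033 (SD, n = 3). By 1426732_at, built on the same sequence record, it read 4.44, 4.90 and 5.11. That probe set was at least 1.05 below background in each muscle, so its order of muscles was not read. The upper probe set lay at least 6.39 above background in each muscle, and no fold is given against the lower one, which was under it. Across the array 2507 pairs of probe sets shared a gene and a sequence record. In 588 of these pairs, 23.5%, the upper probe set was above background in all muscles and the lower in none. A gap as wide as that of Des was rare: 9 of the 2507 pairs, Des among them, had a gap at least as large. The median gap over the pairs was 1.18 on the log2 scale. The position of the probes in the transcript is not given in the sources used here, and what separates the 2 probe sets was not tested.

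Desmin is also made by smooth muscle and heart muscle. Of 7 smooth muscle markers 6 were above background in all 3 muscles, beside 54.8% of all genes. Lmod1 and Actg2 were close to it, lying 0.37 and 0.64 above background in muscle 2. The smooth muscle actin Acta2 was at 11.24 ± 0.021 and the smooth muscle myosin Myh11 at 7.20 ± 0.091 (SD, n = 3), each by its highest probe set. For Acta2 that was 1416454_s_at, whose ending marks probes that can match transcripts of other genes. The other probe sets of Acta2 and Myh11, with means of 3.33 and 4.19, were below background in all 3 muscles. Acta2 also made up the largest part of the sum that follows. Summed after removing the log, the 7 smooth muscle markers gave 3733 signal units for muscle 1, 3792 for muscle 2 and 3750 for muscle 3. Their part in the Des level was not tested. The Des window (chr1:75360042-75360341, plus strand) has an E-box beginning 36 bases before the start.
Des window: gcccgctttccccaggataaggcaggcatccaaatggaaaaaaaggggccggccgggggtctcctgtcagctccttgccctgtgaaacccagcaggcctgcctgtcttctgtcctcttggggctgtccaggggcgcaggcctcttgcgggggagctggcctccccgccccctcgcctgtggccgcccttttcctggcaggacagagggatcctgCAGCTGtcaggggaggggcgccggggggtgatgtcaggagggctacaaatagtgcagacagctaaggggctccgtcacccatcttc

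Nrap, the nebulin-related anchoring protein, binds actin where myofibrils are assembled and where they end at the tendon. It varied most of the 7 probe sets above background. By 1421253_at it read 11.05 in muscle 1, 10.97 in muscle 2 and 11.23 in muscle 3, with a mean of 11.08 ± 0.13 (SD, n = 3). Muscle 3 was above the mean of the others by 0.22, and the highest and lowest muscle differed by 1.20-fold. An E-box begins 16 bases before the start in the Nrap window (chr19:56389989-56390288, minus strand).
Nrap window: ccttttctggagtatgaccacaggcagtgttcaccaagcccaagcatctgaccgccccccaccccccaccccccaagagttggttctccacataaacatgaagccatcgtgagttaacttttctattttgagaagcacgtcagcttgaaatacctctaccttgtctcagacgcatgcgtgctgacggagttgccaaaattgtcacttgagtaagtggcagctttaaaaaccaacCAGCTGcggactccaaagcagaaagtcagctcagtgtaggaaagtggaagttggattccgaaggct

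**Figure D3:**
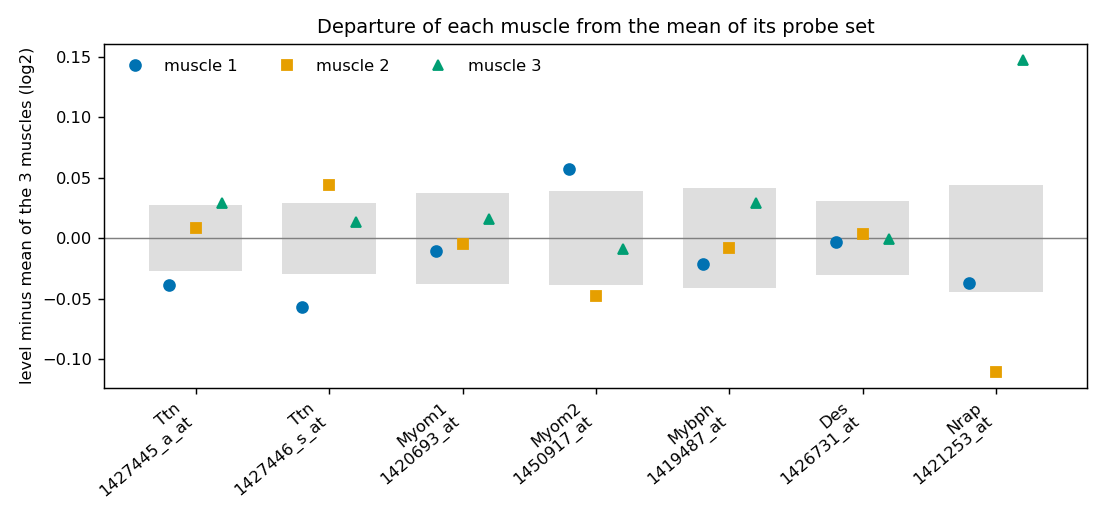
Level in each muscle minus the mean of the 3 muscles (log2, vertical axis) for the 7 probe sets above background, with a grey band of plus or minus the SD that limma fitted for probe sets of like level. All points of Des, Myom1 and Mybph lie within their bands, and muscles 2 and 3 of Nrap lie farthest outside.

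Whether any of these genes differed between muscles by more than other genes of like level was tested with limma. The variance of each probe set was set against the variance fitted across 11068 probe sets above background in at least 1 muscle. None of the 7 probe sets varied in excess at an adjusted p under 0.05, and 1 of them, that of Nrap, had an unadjusted p under 0.05. Over all probe sets tested the adjusted call was made for 12, or 0.108%, and an unadjusted p under 0.05 was found for 546, or 4.93%. The variance of Nrap was 9.12 times the fitted one. By limma its adjusted p was 0.825 and its unadjusted p was 0.0159, which became 0.248 without muscle 3. The other 6 probe sets had unadjusted p-values from 0.118 for Ttn by 1427446_s_at to 0.988 for Des by limma's test. A range of 2-fold or more was found for 0 of the 7 and for 0.614% of all probe sets tested.

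The SD of the 7 probe sets ran from 0.0033 for Des to 0.13 for Nrap, with a median of 0.035. Over all 9697 probe sets above background in every muscle the median SD was 0.078. Spread fell with level across the array, and all 7 probe sets were in the fifth with the highest levels, where the median SD was 0.042. Of the 7, 4 were under that median. Set against the SD fitted at their own level, 3 were under it, namely Myom1, Mybph and Des, and over all probe sets tested 57.9% were.

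**Figure D4:**
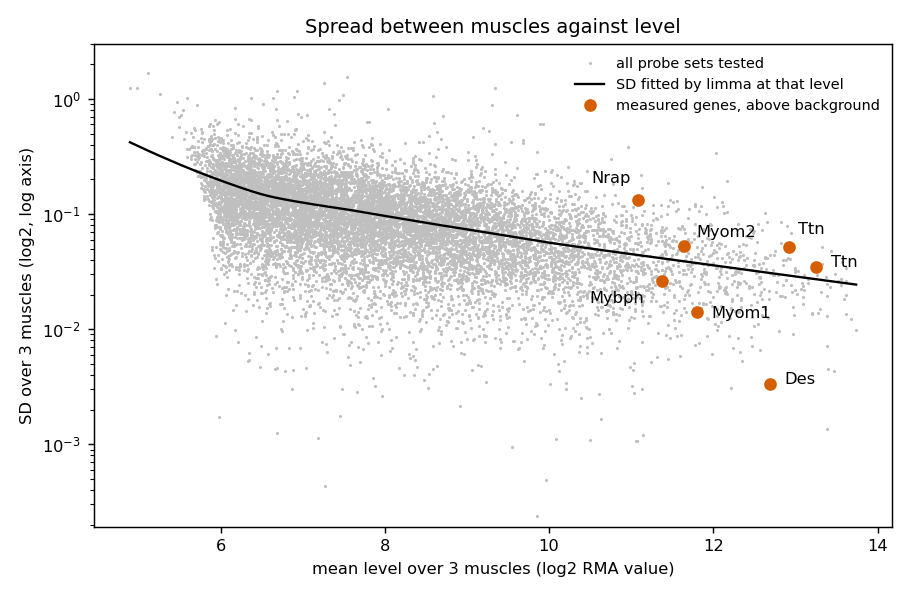
SD over the 3 muscles (log axis) against mean level for all 11068 probe sets tested (grey), with the SD fitted by limma (line) and the 7 probe sets of the measured genes (orange). Nrap lies above the line with an SD of 0.13, and of the 7 Des lies farthest below it with 0.0033.

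The muscles were also compared over the whole group of 7 probe sets. Muscle 3 was the highest muscle for 4 of them, against 24.1% of all probe sets above background, muscle 1 for 1, against 39.7%, and muscle 2 for 2, against 36.2%. Muscle 3 was above the mean of the others in 5 of 7, and over all probe sets above background the share was 36.2%. Muscle 1 was above it in 1 of 7, against 60.1% over all, and muscle 2 in 3 of 7, against 55.3%. Over the 7 probe sets the median departure was -0.032 for muscle 1, -0.0076 for muscle 2 and 0.024 for muscle 3. These medians depended on single muscles: that of muscle 1 was -0.0065 without muscle 3, that of muscle 2 was -0.021 without muscle 1 and 0.0065 without muscle 3, and that of muscle 3 was 0.050 without muscle 2. Over all probe sets above background the medians were 0.024, 0.014 and -0.037. All 7 probe sets were in the fifth with the highest levels, whereas the shares and medians over all probe sets cover every level. Ttn counts among the 7 by 2 probe sets. The group was not tested as a whole.

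Genes whose products bind the same structures were mostly above background too, beside 54.8% of all genes on the array. Each gene was counted by its probe set with the highest mean. In the list of M-band and titin C-terminal partners all 8 measured genes were above background. Among them were Obsl1, a relative of the M-band giant obscurin, at 7.43 ± 0.094, the ubiquitin ligase Trim54 at 9.65 ± 0.11 and the methyltransferase Smyd1 at 9.02 ± 0.18 (SD, n = 3). The Obsl1 value is by 1427535_s_at, and its other probe set, with a mean of 5.82, was below background in all 3 muscles. The Smyd1 value is by 1450203_at. Of its other probe sets, 1421329_a_at, with a mean of 6.20, was below background in muscle 2. The last, 1427714_at, with a mean of 3.30, was below it in all 3 muscles. All 5 measured partners of the elastic I-band part of titin were above background, with the protease Capn3 at 9.73 ± 0.11 and the ankyrin repeat genes Ankrd1 at 6.62 ± 0.17 and Ankrd2 at 8.43 ± 0.068. Ankrd1 was near background, its value by 1420992_at being only 0.26 above it in muscle 3. Its other probe set, 1420991_at, with a mean of 5.68, was above background only in muscle 1. All 8 measured Z-disc anchors were as well. The titin cap Tcap was at 11.81 ± 0.042, the actinin Actn2 at 11.38 ± 0.038 and the LIM protein Csrp3 at 10.12 ± 0.034.

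In the list of the nebulin family and thin filament length, 5 of 6 measured genes were above background, beside 54.8% of all genes. Nebl, which encodes the heart relative of nebulin, was the exception at 2.58 ± 0.13. Lasp1, a small member of the family, was at 9.40 ± 0.076 and the actin nucleator Lmod2 at 10.37 ± 0.072 (SD, n = 3). The Lasp1 value is by 1438634_x_at. Other probe sets of Lasp1 had means from 5.26 to 8.57, and some of them were below background. Of 9 measured intermediate filament genes and linkers of desmin, 7 were above background. The desmin-binding filament protein syncoilin (Sync) was at 7.26 ± 0.52, vimentin (Vim) at 10.84 ± 0.12 and nestin (Nes) at 7.84 ± 0.027, and the epithelial keratins Krt8 and Krt19 were below it.

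By limma's test 1 of 54 probe sets tested in these 5 lists varied in excess, against 0.108% of all probe sets, and 7 of the 54 had an unadjusted p under 0.05, against 4.93% of all. The probe set called belongs to Ldb3, a PDZ and LIM protein of the Z-disc, named after its values were seen, with an adjusted p of 0.0183. The muscle farthest from the others was muscle 3 for 11 of the 12 probe sets called over the array. The median range over probe sets above background was 0.068 for the giant, M-band and myosin-binding genes. It was 0.19 for M-band partners, 0.12 for I-band partners, 0.071 for Z-disc anchors, 0.14 for the nebulin family and 0.16 for filaments and linkers. These lists differ in level, with which spread falls, and their ranges were not tested against each other.

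**Figure D5:**
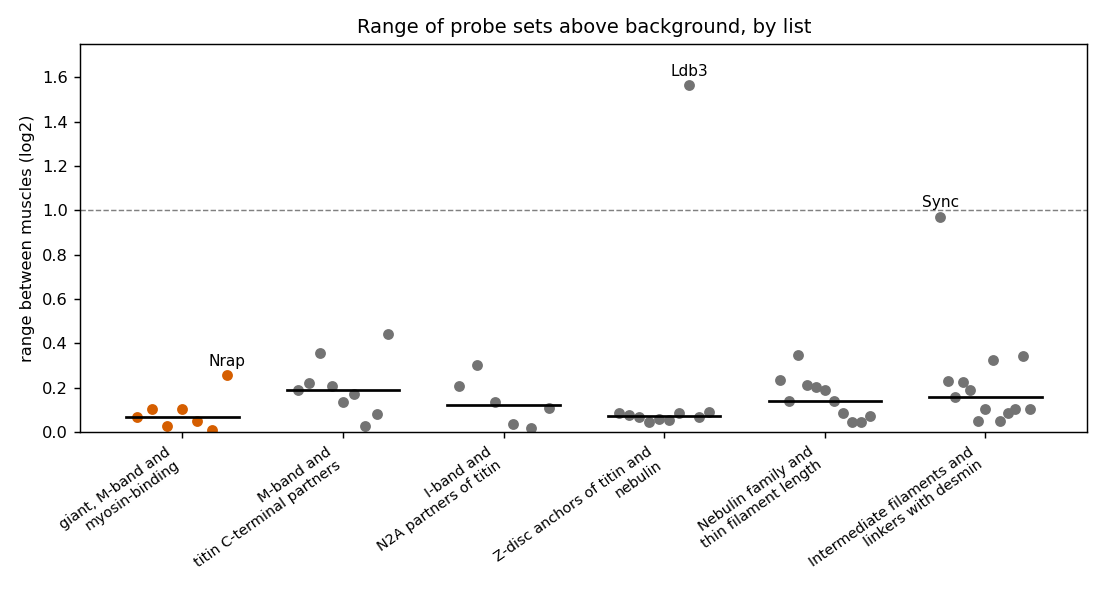
Range between the highest and lowest muscle (log2, vertical axis) for each probe set above background in all 3 muscles, by list, with the median as a bar and a 2-fold range as the dashed line. The 7 probe sets at the left stay at or under 0.26, the value of Nrap, and Ldb3 is the only point above the dashed line.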

How the data were processed

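The deposited values are log2 expression values made by the authors with RMA, per the submitters' processing notes. RMA corrects background, equalises the arrays' distributions and combines the probes of each set. The version of RMA and the set of arrays processed jointly are not known from the labels. A shift shared by most genes would be removed by this step. Of 22690 probe sets, 20393 had 1 gene, 691 had several and 1606 had none in the platform's gene table. The 8 probe sets of the 9 genes all matched RefSeq by gene number with the same symbol.

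The background level used 52 probe sets of 36 measured genes of other organs, of which 2 genes were themselves above it in all 3 muscles. The variance of each probe set, with 2 degrees of freedom, was tested with limma 3.58.1 in R 4.3.3 against a prior fitted robustly with a trend on level, with a one-sided F test, adjusted by Benjamini-Hochberg over all probe sets tested at 0.05. The test was checked on simulated data. Other steps used Python 3.11.15, numpy 2.4.6, pandas 2.3.3 and matplotlib 3.10.9.

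The genes and lists were chosen with earlier results of these data known. All probe sets of the 9 genes are named, and of each partner list the first 3 measured genes in its written order, by the probe set with the highest mean. Ldb3, Krt8 and Krt19 come later in their lists and were named outside this rule. With 3 samples no likeness of pattern between genes was computed. Whether the muscles are separate animals is not stated in the labels, so SDs and p-values reflect the spread of these 3 samples alone, and that may be technical. The number of arrays limits the precision. Alternatives were another normalization, a 99th percentile background, no filter, leaving out probe sets ending in _x_at or _s_at, 1 probe set a gene, other priors, a 1.5-fold range limit and leaving out each muscle.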

Additional observations from a re-analysis of the deposited data

How the results depend on the processing

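Under the alternatives run, the counts of member probe sets and genes above background stayed within 1.5 times. The median SD of the members, 0.035, was 0.021 without muscle 1 and 0.047 without muscle 2. Their median departure in muscle 2, -0.0076, was -0.026 after quantile normalization and turned to 0.0065 without muscle 3. No member probe set was called by limma under any of them, and Nrap's unadjusted p ran from 0.00817 after quantile normalization to 0.248 without muscle 3, where a Ttn probe set had 0.0495, and 0.262 with no trend on level, where 0 members were under 0.05. The number of probe sets over the array with excess variance, 12, did change: it was 25 after quantile normalization, 5 with the highest probe set of each gene (fewer tested), 0 with no trend and 0 with a prior not fitted robustly, where 388 and 459 had an unadjusted p under 0.05. Leaving out a muscle gave from 0 to 1, with 1 degree of freedom left: 0 without muscle 1 (482 unadjusted), 1 without muscle 2 and 1 without muscle 3. No paired analysis was possible because the samples form a single group. Without detection calls or probe-level signals, saturation of the brightest probe sets could not be tested.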

Other observations

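Both Ldb3 and Sync, partners of these proteins, had probe sets that read higher in muscle 3. They were picked for this paragraph after their values were seen. Over the whole array, muscle 3 was the muscle farthest from the others for 11 of the 12 probe sets called. For Ldb3, a Z-disc protein, 1451999_at read 8.84 in muscle 1, 8.76 in muscle 2 and 10.32 in muscle 3. The other probe sets of Ldb3 differed little between muscles, 1416752_at reading 12.54, 12.60 and 12.55, and 1433783_at reading 12.20, 12.15 and 12.23. For syncoilin (Sync), 1422118_at read 6.87, 7.06 and 7.85, and the other probe sets of the gene were below background in every muscle. In limma's test of variance, 1451999_at had an adjusted p of 0.0183 and 1422118_at of Sync 0.470, each being higher in 1 of 3 muscles.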
